A study of Mus musculus with 48 samples.

Results

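8 genes of kidney drug and metabolite transport were followed here: Slc22a2, Slc22a4, Slc22a5, Slc22a6, Slc22a7, Slc22a8, Slc22a12 and Slc47a1. They were taken by symbol from both deposited expression tables, and all 8 of these genes were found among the 49585 genes listed. Each was read in every one of 48 mouse kidney libraries. The rule used no measured value.

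The proximal tubule clears drugs, toxins and metabolites from blood into urine in a pair of steps. Carriers of the SLC22 family on the blood-facing (basolateral) membrane take up organic anions in exchange for dicarboxylates, or organic cations along the membrane potential, and other carriers on the urine-facing (apical) membrane then release them. Slc22a6 and Slc22a8 encode the organic anion transporters OAT1 and OAT3, Slc22a7 encodes OAT2, and Slc22a12 encodes URAT1, an apical exchanger of urate. Slc22a2 encodes the cation transporter OCT2, and Slc47a1 encodes MATE1, the apical proton exchanger that passes cations on to the urine. Slc22a5 encodes OCTN2, the sodium-coupled carnitine transporter, and Slc22a4 encodes OCTN1, a carrier of ergothioneine.

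The study compared wild-type (WT) mice given D-alanine, the mirror-image form of L-alanine, with mice given vehicle. Kidneys were taken at 6 circadian times (CT) 4 h apart, from CT0 to CT20, which gave 12 groups of 4 libraries. The sources used here give no strain, age, sex, dose or route. The series text speaks of kidneys of different mice and of a repeated experiment, and each of 2 deposited tables held 2 libraries of every group. The tables were taken as the runs of that experiment, which is an inference. Within each group, replicates 1 and 2 are in the first table and replicates 3 and 4 in the second.

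Values are FPKM, fragments scaled to exon length and to the library total, so levels can be compared between genes per length. Depth was 7626057 to 14403230 fragments per library, and even the lowest member, Slc22a4, had 430 to 993 fragments. In every library the 9 proximal tubule markers were detected. Their summed level was 1725 to 3743 FPKM, with medians of 2826 in vehicle and 2766 in D-alanine. A set of 3 libraries had the lowest sums, and they were among the 7 libraries with the highest sums of 3 inner medulla markers. D-alanine CT0 replicate 2 had 1725 FPKM of proximal tubule markers and 608.4 of inner medulla markers, D-alanine CT0 replicate 1 had 1845 and 152.0, and vehicle CT0 replicate 1 had 1957 and 221.5. The median of the inner medulla sum was 23.8 FPKM in vehicle and 43.0 in D-alanine. All 3 of these libraries are CT0 libraries of the first table, so the rhythm of each called gene is given with and without them. For the other genes the rhythm values without them are not printed. In whole-kidney RNA, fewer cells of a type and less RNA per cell cannot be told apart.

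The genes lie in clusters, at the positions given in the deposited tables (GRCm38). Slc22a8 (chr19:8591254-8611834) and Slc22a6 (chr19:8617996-8628299) are 6161 bp apart on the plus strand, with no protein-coding gene between them. Slc22a5 (chr11:53864542-53891660) and Slc22a4 (chr11:53983123-54028090) are on the minus strand, 91462 bp apart, with Slc22a21 between them. Slc47a1 (chr11:61343401-61378345, minus strand) is on the same chromosome, 7315310 bp from Slc22a4. Slc22a2 (chr17:12584189-12628465, plus strand) and Slc22a7 (chr17:46432185-46438477, minus strand) share chromosome 17. Slc22a12 (chr19:6535845-6543019, minus strand) overlaps Nrxn2, a gene of the plus strand that was read at 0.95 to 4.32 FPKM. The sources used here do not say whether reads kept their strand.

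The promoters of the neighbour pairs are printed because both pairs hold the members with the clearest course over the day. Each line gives the 250 bases before the RefSeq start of the gene. RefSeq promoter entries matched 6 of the 8 members. Capitals mark matches to motifs searched on both strands. The motifs were chosen after the sequences had been seen.
Slc22a4 (GRCm38.p6, minus strand, chr11:54028105-54028354): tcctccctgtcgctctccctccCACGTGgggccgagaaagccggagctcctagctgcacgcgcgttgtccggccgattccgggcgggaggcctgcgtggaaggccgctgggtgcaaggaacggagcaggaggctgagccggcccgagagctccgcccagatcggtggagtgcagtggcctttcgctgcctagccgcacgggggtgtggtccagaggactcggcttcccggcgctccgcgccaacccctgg
Slc22a5 (GRCm38.p6, minus strand, chr11:53891704-53891953): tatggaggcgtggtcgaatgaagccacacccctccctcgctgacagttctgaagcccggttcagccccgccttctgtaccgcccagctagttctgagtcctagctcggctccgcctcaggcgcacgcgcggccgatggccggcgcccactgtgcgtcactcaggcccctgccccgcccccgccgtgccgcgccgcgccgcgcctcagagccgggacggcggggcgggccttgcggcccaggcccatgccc
Slc22a6 (GRCm38.p6, plus strand, chr19:8617746-8617995): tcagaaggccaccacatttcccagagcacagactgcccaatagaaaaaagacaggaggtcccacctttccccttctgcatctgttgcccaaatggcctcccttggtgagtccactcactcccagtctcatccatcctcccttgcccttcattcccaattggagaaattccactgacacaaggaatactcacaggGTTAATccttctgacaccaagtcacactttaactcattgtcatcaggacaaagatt
Slc22a8 (GRCm38.p6, plus strand, chr19:8592932-8593181): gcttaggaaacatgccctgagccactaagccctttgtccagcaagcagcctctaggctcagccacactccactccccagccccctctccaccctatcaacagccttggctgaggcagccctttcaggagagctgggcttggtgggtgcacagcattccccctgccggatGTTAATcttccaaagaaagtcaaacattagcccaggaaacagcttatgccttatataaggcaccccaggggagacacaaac
The capitals in Slc22a4 are CACGTG, the E-box that clock factors among others bind, at bases -228 to -223 from the start. The same letters stand in 6.02% of 32851 mouse promoter windows of this length. In Slc22a6 and Slc22a8 the capitals are the letters GTTAAT, which both windows hold, at -56 to -51 and at -81 to -76, and 6.43% of all windows hold them. The Slc22a5 window held neither motif. None of the printed windows held the D-box TTANGTAA (2.06% of windows), the ROR element (0.18%) or the HNF4 repeat CAAAGTCCA (0.38%), and no 2 of these matches overlap. The windows of Slc22a4 and Slc22a5 have a GC content of 71.2% and 73.6%, and those of Slc22a6 and Slc22a8 of 48.4% and 55.2%. The Slc22a8 window overlaps an exon of a retained-intron transcript of that gene in GENCODE M21.

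All 8 genes were read at levels that span a wide range. Slc22a12 (URAT1) had the highest level, with a lowest value of 305.3, a median of 726.2 and a highest value of 1070.2 FPKM over the 48 libraries. Slc22a4 (OCTN1) had the lowest, from 12.9 through a median of 24.6 to 32.5 FPKM. Slc22a12 exceeded Slc47a1, the next in order, in 48 of 48 libraries, and Slc22a5 exceeded Slc22a4 in 48 of 48.

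The middle of the order was less settled. Slc47a1 (MATE1) ranged from 151.5 to 310.3 FPKM with a median of 231.7, and Slc22a6 (OAT1) from 91.6 to 326.9 with a median of 203.2. Slc47a1 was above Slc22a6 in 24 of 24 libraries of the first table and in 4 of 24 of the second, so their order depends on the table. Slc22a2 (OCT2), with 103.6 to 232.8 FPKM and a median of 190.8, was below Slc22a6 in 36 of 48 libraries, and their mean log2 ratio of 0.15 was smaller than its SD of 0.29. Slc22a8 (OAT3) had 58.0 to 274.1 FPKM and a median of 146.6, and Slc22a7 (OAT2) had 36.0 to 186.3 and a median of 112.7. Slc22a8 was above Slc22a7 in 36 of 48 libraries, and their mean log2 ratio of 0.44 was smaller than its SD over libraries of 0.72. Slc22a5 (OCTN2) had 29.5 to 82.6 FPKM and a median of 53.2, and was below Slc22a7 in 43 of 48 libraries.

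**Figure D1:**
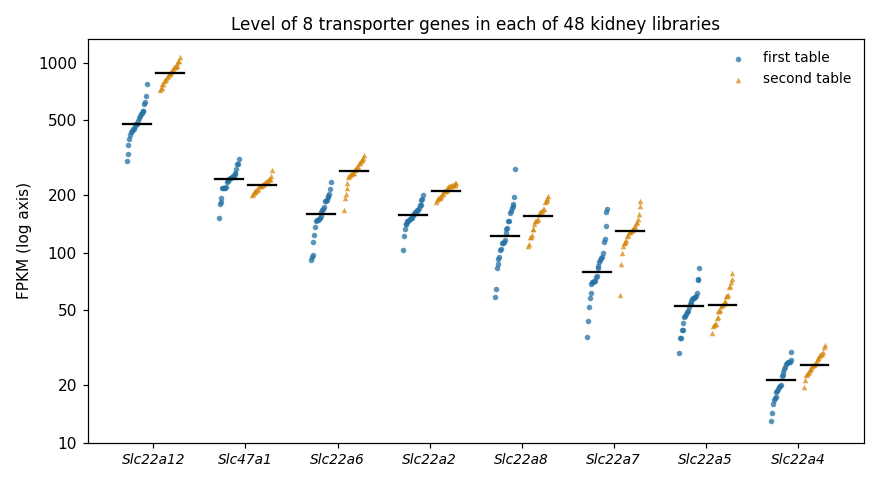
FPKM on a log axis for each of the 8 genes in 48 libraries, with circles for the 24 libraries of the first table, triangles for the 24 of the second, and lines at the medians. Slc22a12 lies highest and Slc22a4 lowest in both tables, and Slc47a1 and Slc22a6 change places between the tables.

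The tables differed in level for most of the genes. In the model, the second table was above the first by a log2 difference of 0.85 ± 0.07 for Slc22a12, 0.75 ± 0.09 for Slc22a6, 0.61 ± 0.12 for Slc22a7 and 0.44 ± 0.05 for Slc22a2 (SE, log2(FPKM + 1)). Slc22a8 and Slc22a4 each stood 0.29 higher, Slc22a5 0.07 higher, and Slc47a1 was at -0.05, beside a median of 0.07 over all genes tested. The first-table and second-table ranges of Slc22a12 were 305.3 to 775.9 and 715.8 to 1070.2 FPKM and hardly overlapped. Mitochondrially encoded genes took, in the first table, a median share of 41.1% of the FPKM for vehicle and 37.1% for D-alanine, against 20.3% and 17.0% in the second. The part of that share in the table difference was not tested. The table was therefore a term of every model.

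A daily course was called for 3 of the 8 genes: the neighbours Slc22a4 and Slc22a5, and Slc22a8. Over both tables their means were lowest at CT0 and highest between CT8 and CT12. In the second table alone, Slc22a5 was lowest at CT16 (44.5 FPKM, beside 49.5 at CT0). The same was true of Slc22a8 (143.4 FPKM, beside 144.1 at CT0). The test was a 24 h cosine fitted to both treatments together in limma, with Benjamini-Hochberg adjustment over 14922 genes at 0.05. Across all genes tested, 26.5% were called rhythmic in that test. A count of 3 of 8 is thus near the background. The median amplitude was 0.18 for the 8 genes and 0.10 for all genes tested (log2). The 0.18 lies between Slc22a6 (0.15) and Slc22a7 (0.21), neither of which was called. An amplitude cannot fall below 0, so spread between libraries adds to it, and the log2(FPKM + 1) scale understates low genes. The medians therefore do not show a stronger rhythm in the 8 genes.

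Slc22a4, the ergothioneine carrier, gave the same course in both tables. At CT0 the 4 libraries of the first table had 17.1, 12.9, 15.9 and 19.2 FPKM, and those of the second had 22.8, 19.7, 23.5 and 21.2. At CT8 they had 27.0, 30.0, 26.5 and 23.4 FPKM in the first and 27.8, 30.1, 31.9 and 28.9 in the second. Within each table every CT8 library was above every CT0 library, for both treatments. CT8 and CT0 were picked for their highest and lowest means in these same values, so some separation was built in. The same holds for the times compared in Slc22a5, Slc22a8 and Slc22a6 below. The share of all genes that separate in this way was not counted. The mean over 8 libraries went from 19.0 ± 3.59 FPKM at CT0 to 28.2 ± 2.64 at CT8 (SD) and was 21.7 ± 4.63 at CT20. The fitted amplitude was 0.22 ± 0.04 (SE), or 1.36-fold from trough to peak on the FPKM + 1 scale, with the peak at CT9.57 ± 0.68 h (limma, adjusted p = 1.438e-04). It was called in each table alone, with peaks at CT9.73 (adjusted p = 0.0332) and CT9.34 (adjusted p = 0.0044). It was called in all 48 fits that left out a single library. Without the 3 CT0 libraries named above, the amplitude was 0.21 (adjusted p = 8.133e-04).

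Slc22a5, the carnitine transporter, had its highest mean over both tables at CT8 and its lowest at CT0. At CT0 the libraries of the first table had 39.1, 35.3, 29.5 and 39.2 FPKM, and those of the second had 49.1, 37.6, 52.1 and 59.3. At CT8 the first table had 72.5, 82.6, 57.9 and 71.4 FPKM, and the second had 53.4, 59.7, 78.5 and 70.0. In the first table the times did not overlap, with a ratio of means of 1.99, while in the second they overlapped, with a ratio of 1.32. Across both tables the mean was 42.7 ± 9.90 FPKM at CT0 and 68.2 ± 10.3 at CT8 (SD, 8 libraries each). The amplitude was 0.25 ± 0.05 (SE), or 1.42-fold, with the peak at CT7.66 ± 0.80 h (limma, adjusted p = 0.0012). The second table alone gave a call (CT6.05, adjusted p = 0.0052) and the first did not (CT9.18, adjusted p = 0.0635). Without the 3 CT0 libraries the amplitude was 0.23 (adjusted p = 0.0011).

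Slc22a21, a further carnitine transporter gene that lies between Slc22a4 and Slc22a5, was called too. Its level was low, with 1.26 to 5.75 FPKM, its amplitude was 0.22 ± 0.05 (SE) and its peak was at CT6.44 (limma, adjusted p = 0.0013). Sequence similarity among these neighbours could move fragments between them, and the sources used here do not say how the counting treated such fragments.

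Slc22a8, the organic anion transporter OAT3, had a later course that rested on the first table. At CT0 the libraries of the first table had 83.0, 92.2, 87.2 and 64.6 FPKM, and at CT12 they had 126.2, 165.2, 274.1 and 134.0. In the second table the CT0 libraries had 147.4, 123.7, 120.2 and 185.3 FPKM, and the CT12 libraries 169.1, 132.5, 189.0 and 186.2. The CT0 and CT12 libraries did not overlap in the first table, with a ratio of means of 2.14, and overlapped in the second, with a ratio of 1.17. The joint amplitude was 0.28 ± 0.07 (SE), or 1.47-fold, with the peak at CT11.7 ± 0.97 h (limma, adjusted p = 0.0090). The first table alone gave an amplitude of 0.47 (adjusted p = 0.0193) and the second 0.12 (adjusted p = 0.325). Without the 3 CT0 libraries with low proximal tubule markers, the amplitude was 0.20 and the call was lost (adjusted p = 0.0839). With the 6 times as a factor in place of a cosine, Slc22a8 did not pass either (adjusted p = 0.0503), while Slc22a4 (1.670e-04) and Slc22a5 (7.268e-05) did, beside 20.8% of all genes.

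**Figure D2:**
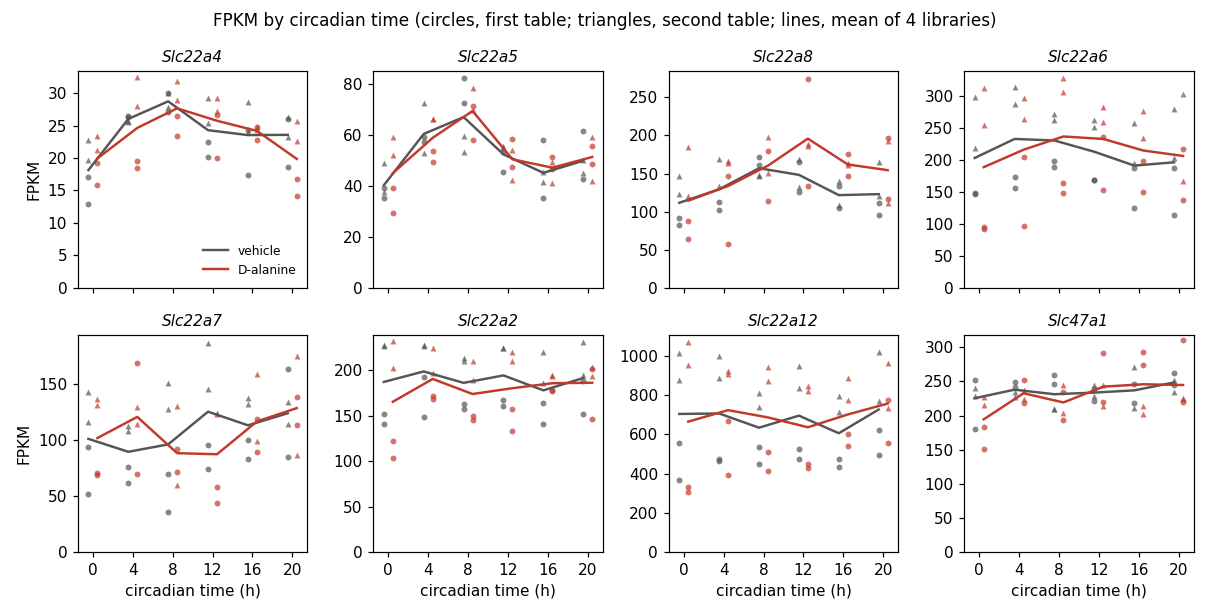
FPKM of each gene against circadian time in hours, with circles for the first table, triangles for the second, grey for vehicle, red for D-alanine, and lines through the means of 4 libraries. Slc22a4 and Slc22a5 are highest at CT8 in both treatments and lowest at CT0, except that Slc22a4 in D-alanine is about as low at CT20, and in Slc22a8 the first-table circles climb from CT0 to CT12 more than the triangles do.

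The other anion transporters were not called. Slc22a6, the neighbour of Slc22a8, had an amplitude of 0.15 ± 0.06 with the peak at CT9.45 (limma, adjusted p = 0.128). Its first-table libraries were at 147.6, 146.1, 95.2 and 91.6 FPKM at CT0 and at 189.0, 197.2, 148.7 and 163.3 at CT8. These did not overlap, while the second-table values did. The CT0 values of 147.6, 95.2 and 91.6 FPKM are from the libraries low in proximal tubule markers. Slc22a7 had an amplitude of 0.21 ± 0.09 with the peak at CT19.1, in the opposite part of the day (limma, adjusted p = 0.138). Each of these genes passed when a particular library was left out. Leaving out D-alanine CT20 replicate 1 gave an adjusted p of 0.0464 for Slc22a6, and leaving out D-alanine CT4 replicate 2 gave 0.0364 for Slc22a7. Slc22a12 had an amplitude of 0.04 ± 0.05 and an adjusted p of 0.809 in limma.

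The genes of cation transport were not called either. Slc22a2 had an amplitude of 0.01 ± 0.03 (limma, adjusted p = 0.938), and the means of its 6 times lay between 176.4 and 194.8 FPKM. Slc47a1 had an amplitude of 0.06 ± 0.04 (limma, adjusted p = 0.358), with means from 209.9 FPKM at CT0 to 246.6 at CT20. With the mean level of the proximal tubule markers as a covariate, Slc47a1 (0.12, adjusted p = 0.0144), Slc22a12 (0.12, adjusted p = 0.0254) and Slc22a6 (0.15, adjusted p = 0.0380) were called, and 6 of the 8 genes passed, beside 4632 of the 14922 genes tested in that fit and 3947 without the covariate. Several of those markers are themselves rhythmic, with 3 of 9 called.

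**Figure D3:**
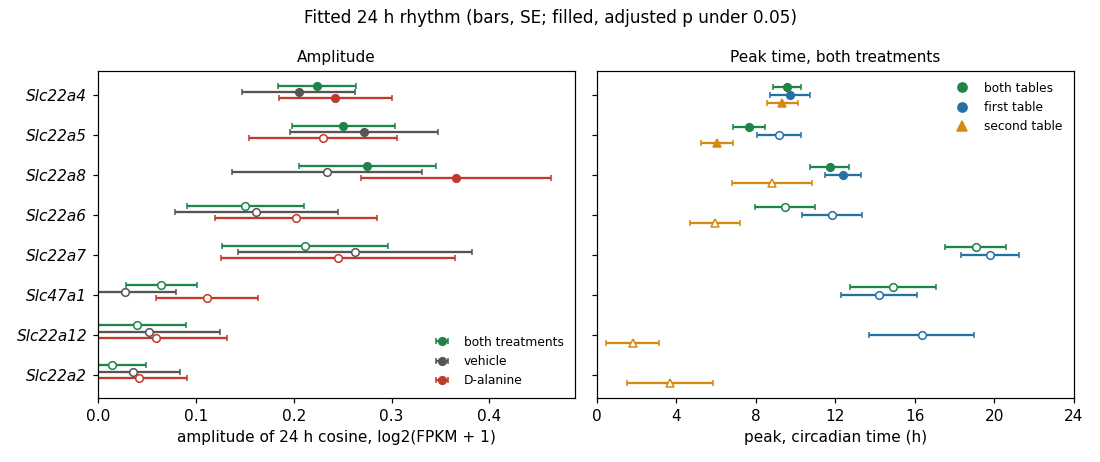
Left, amplitude of the fitted 24 h cosine on the log2(FPKM + 1) scale for both treatments, vehicle and D-alanine; right, peak time in hours for both tables and for each table, drawn where its SE was under 3 h. Bars are SE and filled symbols have an adjusted p under 0.05; the peak of Slc22a4 differs little between tables (CT9.73 and CT9.34), while that of Slc22a5 is at CT9.18 in the first and CT6.05 in the second.

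Fitted by treatment, 2 of the 8 genes were called in vehicle, beside 9.77% of all genes, and 2 in D-alanine, beside 8.30%. In vehicle these were Slc22a4 (amplitude 0.21 ± 0.06, limma adjusted p = 0.0430) and Slc22a5 (0.27 ± 0.08, adjusted p = 0.0399). In D-alanine they were Slc22a4 (0.24 ± 0.06, adjusted p = 0.0137) and Slc22a8 (0.37 ± 0.10, adjusted p = 0.0320). Peaks of Slc22a4 were at CT9.41 and CT9.71, and those of Slc22a5 at CT7.81 and CT7.48, in vehicle and D-alanine. Slc22a8 peaked at CT9.75 in vehicle, where it was not called (adjusted p = 0.238), and at CT13.0 in D-alanine. The direct test of a difference in rhythm between treatments called 0 of the 8 genes in limma, and 0% of all genes. With an unadjusted threshold of 0.05 it held 0 of the 8, beside 2.37% of all genes, and the smallest p was 0.152, for Slc22a8. Of the 48 fits that left out a library, 17 held fewer than 2 calls in vehicle and 6 in D-alanine. In vehicle 7 held 0, which were the fits without CT0 replicate 1, 2 or 4, CT8 replicate 1, 2 or 4, or CT16 replicate 3. In D-alanine all 6 held 1, which were the fits without CT0 replicate 1, 2 or 3, CT4 replicate 2, CT12 replicate 1 or CT16 replicate 1.

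No difference between D-alanine and vehicle was called for any of the 8 transporter genes. Averaged over the 6 times, 0 of 8 passed in limma, beside 1.74% of all genes (237 higher and 22 lower), and 0 of 8 had an unadjusted p under 0.05, beside 20.5% of all genes. The median difference was -0.01 for the 8 genes and 0.06 for all genes tested (log2(FPKM + 1), D-alanine minus vehicle). Both medians moved with the scaling. They were 0.05 and 0.11 with TPM, -0.02 and -0.004 with quantile normalization, and -0.08 and -0.01 with median centring. After rescaling without mitochondrial genes they were -0.03 and 0.04.

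Slc22a8 had the largest difference. Its lowest, median and highest values were 83.0, 132.8 and 171.7 FPKM in 24 vehicle libraries, and 58.0, 162.0 and 274.1 in 24 D-alanine libraries. The groups overlapped over most of their range, and the D-alanine libraries were spread wider. The difference was 0.17 ± 0.10 (SE), with a 95% interval of -0.04 to 0.37 (limma, adjusted p = 0.337). It was higher in D-alanine in 9 of 12 pairs of a time and a table, 6 of 6 of them in the second table. Without D-alanine CT4 replicate 2 the difference was 0.22 and still not called (adjusted p = 0.152). By time, the values were 0.37 at CT12, 0.42 at CT16 and 0.31 at CT20, and between -0.04 and 0.00 from CT0 to CT8, and the treatment by time test gave an adjusted p of 0.970.

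Slc22a2, the cation uptake transporter, had the next largest difference, below 0. Its lowest, median and highest values were 141.3, 190.5 and 231.4 FPKM in vehicle and 103.6, 191.5 and 232.8 in D-alanine. The difference was -0.08 ± 0.05 (SE), with an interval of -0.17 to 0.02 (limma, adjusted p = 0.358), and D-alanine was the higher in 3 of 12 pairs of a time and a table. Its CT0 difference was -0.22 ± 0.11 (adjusted p = 0.247), and the 2 lowest of all 48 values, 103.6 and 122.5 FPKM, were the D-alanine CT0 libraries with low proximal tubule markers. Without the 3 libraries named above, the difference over the times was -0.04 (adjusted p = 0.649).

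The estimates of the other 6 genes lay between -0.05 and 0.03. By table they differed in sign for all but Slc47a1, such as 0.15 and -0.16 for Slc22a7 and -0.10 and 0.08 for Slc22a6. The intervals reached from -0.19 to 0.17 for Slc22a6, from -0.25 to 0.24 for Slc22a7, from -0.13 to 0.16 for Slc22a12, from -0.15 to 0.06 for Slc47a1, from -0.10 to 0.17 for Slc22a5 and from -0.13 to 0.08 for Slc22a4. Slc22a2 was below 0 and Slc22a8 above 0 in every alternative run, while each of the other 6 changed sign in at least one.

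**Figure D4:**
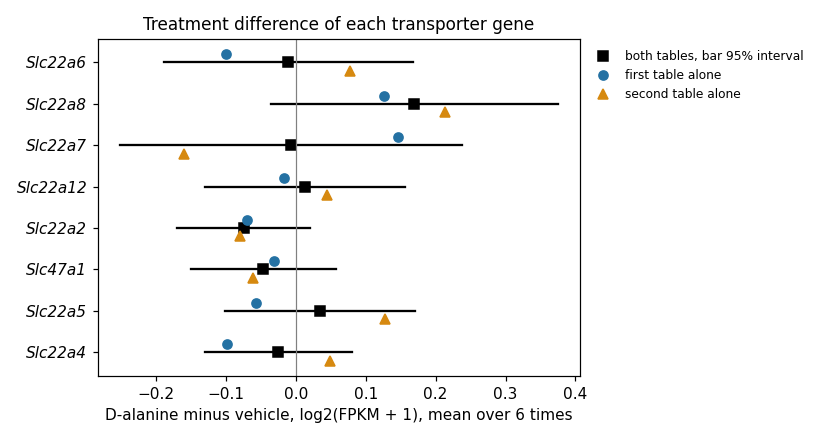
D-alanine minus vehicle on the log2(FPKM + 1) scale, mean over 6 times, for each gene, with squares and 95% intervals for both tables and circles and triangles for each table alone. All 8 intervals include 0, and Slc22a8 (0.17), Slc22a2 (-0.08) and Slc47a1 (-0.05) lie on the same side in both tables.

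At single times, 0 of 48 pairs of a gene and a time passed in limma. At CT0 1.14% of all genes were called, and at CT4, CT8, CT12, CT16 and CT20 0%. With an unadjusted threshold of 0.05, a single pair of the 48 was under it. This was Slc22a4 at CT20, with -0.26 ± 0.13 (SE). Of all genes, 22.0% at CT0, 2.55% at CT4, 14.8% at CT8, 2.27% at CT12, 4.74% at CT16 and 2.57% at CT20 were under that threshold. Slc22a7 had the widest swings by time, with 0.40 ± 0.30 at CT4 and -0.57 ± 0.30 at CT12. Neither the treatment by time nor the treatment by table test called any of the 8 genes, and each called 0% of all genes. With an unadjusted threshold of 0.05 both held 0 of the 8, beside 3.53% and 3.84% of all genes.

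The genes also varied between libraries of the same group and table. The widest gap within such a pair was 2.51-fold, for Slc22a8 in the first table, and the within-pair SD in that table was 0.45 for Slc22a7, 0.43 for Slc22a8 and 0.16 for Slc22a2 (log2). For each pair of genes, log2(FPKM + 1) minus the mean of its group and table was correlated over 48 libraries, that is 24 pairs of libraries. The p-values come from exchanging the libraries of a pair at random (100000 permutations, two-sided, adjusted over 28 pairs of genes). Of the 28 correlations 19 were above 0, and 3 passed by Pearson's r. Some differed in sign between the tables, such as Slc22a2 with Slc47a1 (0.703 in the first and -0.663 in the second), Slc22a6 with Slc47a1 (0.598 and -0.384) and Slc22a12 with Slc47a1 (0.732 and -0.178). The libraries share depth, scaling and tissue makeup.

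Slc22a6 and Slc22a12, OAT1 and the urate exchanger, had the highest r, 0.760 (permutation p = 1.80e-04, adjusted p = 0.00252; rho = 0.745, p = 1.70e-04, adjusted p = 0.00238). It was 0.675 without the pair of libraries with the widest gap in Slc22a6, and 0.715 and 0.872 in the first and second table. After centring by group and table, that pair holds the 2 libraries farthest from the median. Below, the gene named first sets the 2 farthest libraries. Slc22a8 and Slc47a1, OAT3 and MATE1, had an r of 0.700 (permutation p = 1.10e-04, adjusted p = 0.00252; rho = 0.785, p = 9.00e-05, adjusted p = 0.00238). It was 0.721 without the 2 farthest libraries and 0.787 and 0.459 by table. Slc22a2 and Slc22a6 had an r of 0.606 (permutation p = 0.00173, adjusted p = 0.0161; rho = 0.639, p = 0.00264, adjusted p = 0.0246), with 0.546 without the 2 farthest libraries and 0.611 and 0.598 by table. The genomic neighbours Slc22a6 and Slc22a8 had an r of 0.673 (permutation p = 0.0259, adjusted p = 0.0908; rho = 0.516, p = 0.0312, adjusted p = 0.109), which did not pass. The other neighbours, Slc22a4 and Slc22a5, peaked at CT9.57 and CT7.66 in the joint fit. Their peaks were at CT9.73 and CT9.18 in the first table alone and at CT9.34 and CT6.05 in the second. Within pairs of libraries they had an r of -0.130 (permutation p = 0.664, adjusted p = 0.715; rho = 0.023, p = 0.926, adjusted p = 0.926).

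Slc22a7 had an r below 0 with 6 of its 7 partners, none of which passed by r, and with Slc22a12 the sign changed without the 2 farthest libraries (-0.192 and 0.058). Against Slc22a8 it had an r of -0.567 (permutation p = 0.0125, adjusted p = 0.0702) and a rho of -0.591 (p = 0.00468, adjusted p = 0.0328), so that the rank measure passed and r did not. In the first and second table r was -0.530 and -0.648, and without the 2 farthest libraries it was -0.434. An example is D-alanine CT4 replicate 2, which had the highest Slc22a7 of the first table (169.0 FPKM), the lowest Slc22a8 (58.0 FPKM), and the highest Cyp7b1 (136.1 FPKM) and Slc7a13 (379.1 FPKM). The same library was also the highest of that table in Slc12a1 of the thick ascending limb, in the intercalated cell genes Atp6v0d2, Atp6v1g3 and Slc4a1, and in Hbb-bt of red blood cells. It was the lowest in the proximal tubule genes Slc5a12 and Gatm, and Acsm3 ranked 18 of 24 from the lowest.

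Markers were set beside the genes in the same way, as a description over the 48 libraries, for the 9 proximal tubule markers, Slc14a2 and Aqp4. The r of Cyp7b1, an enzyme of sterol metabolism enriched in the late proximal tubule, was 0.760 with Slc22a7, -0.785 with Slc22a8, -0.684 with Slc22a6 and -0.474 with Slc22a12. The other late markers gave smaller values, and Acsm3 differed in sign for Slc22a6 and Slc22a12. Acsm3 had an r of 0.381 with Slc22a7 (0.627 and -0.006 by table), -0.257 with Slc22a8, 0.210 with Slc22a6 and 0.310 with Slc22a12. Slc7a13 had 0.243 with Slc22a7 (0.452 and -0.351 by table) and -0.466 with Slc22a8. Its r was -0.307 with Slc22a6 (-0.453 and 0.155 by table) and -0.333 with Slc22a12 (-0.486 and 0.257). Slc34a1, the phosphate transporter of the early proximal tubule, had an r of 0.783 with Slc22a8, 0.745 with Slc22a12, 0.728 with Slc22a6 and -0.415 with Slc22a7. The remaining proximal tubule markers varied in their r with Slc22a7: Slc5a12 -0.552, Gatm -0.483, Slc5a2 -0.339, Lrp2 -0.138 and Cubn -0.006. By table, Lrp2 had 0.274 and -0.72 with Slc22a7, and Cubn 0.259 and -0.582. Cubn had 0.383 with Slc22a8, 0.348 with Slc22a12 and 0.441 with Slc22a6. Aqp4, a water channel of the collecting duct, had an r of -0.830 with Slc47a1 and -0.645 with Slc22a8. For Slc22a4 the r with these 11 markers lay between -0.28 and 0.31 over both tables, but by table it differed, with -0.303 and 0.624 for Slc5a12. The part of tissue sampling in these correlations was not tested.

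**Figure D5:**
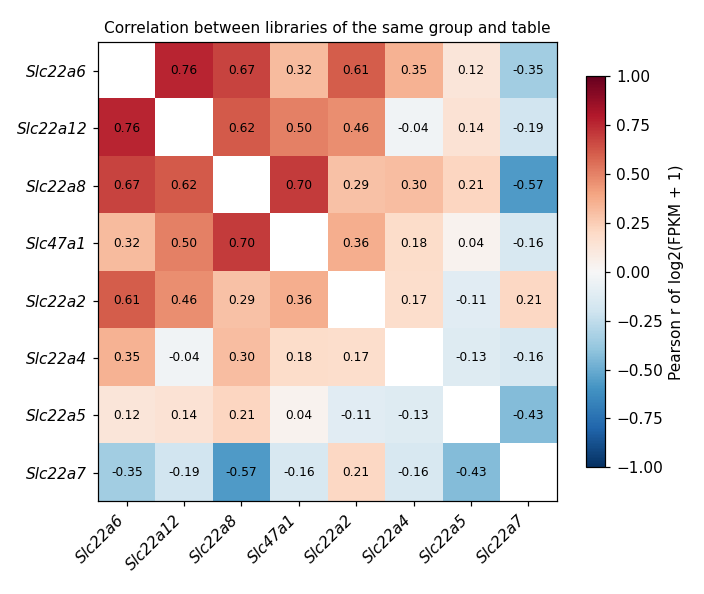
Pearson r between the 8 genes over 48 libraries, for log2(FPKM + 1) minus the mean of its group and table, on a colour scale from -1 to 1. The 6 pairs among Slc22a6, Slc22a12, Slc22a8 and Slc47a1 are above 0.3, of which 2 passed and 2 are below 0 in the second table alone, and Slc22a7 is below 0 with every gene other than Slc22a2.

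For each gene the closest other genes were named by Pearson r of log2(FPKM + 1) minus the table mean over 48 libraries, as a description that includes the course over the day. Slc22a5 was closest to Aspa (0.860), an aminoacylase, to Cpt1a (0.849), the carnitine palmitoyltransferase of mitochondrial fatty acid import, and to Slc6a19 (0.827), a neutral amino acid transporter. Slc22a4 was closest to Osbpl6 (0.801), Car9 (0.727) and Slc12a7 (0.725). Slc22a6 was closest to Acsm2 (0.877), Pecr (0.854) and Acy3 (0.844), the last an aminoacylase for mercapturic acids. Slc22a8 was closest to Igfbp4 (0.859), Slc36a1 (0.821) and the creatine transporter gene Slc6a8 (0.819). Slc22a7 was closest to Akr1c18 (0.785), Ppic (0.777) and Cyp7b1 (0.775). Slc22a12 was closest to Pdzd3 (0.798), which encodes a PDZ scaffold, Glyctk (0.789) and Ttyh2 (0.775). Slc22a2 was closest to Haao (0.795), Eci3 (0.789) and Treh (0.782), and Slc47a1 to Fggy (0.873), Mlxipl (0.849) and Nit1 (0.839). Some of these values were much higher in the first table than in the second. For Slc22a2 they were 0.876 and 0.483 with Haao, 0.914 and 0.44 with Eci3, and 0.854 and 0.46 with Treh. Slc47a1 with Nit1 had 0.897 and 0.521, and Slc22a8 with Slc36a1 had 0.883 and 0.528. Slc22a4 with Osbpl6 had 0.801 in each table. None of the 8 genes was among the closest 3 of another.

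Related genes were read from lists, with the same limma test of the joint rhythm (26.5% of all genes called). Of the other SLC22 and SLC47 genes, 13 of 19 were tested and Slc22a21 was the only one called. Of the efflux, urate and organic anion polypeptide carriers, 3 of 11 were called. These were Slc2a9, a urate transporter (0.29, CT9.88, adjusted p = 3.147e-05), Slco3a1 (0.11, CT19.6, adjusted p = 0.0060) and Abcg2 (0.12, CT3.15, adjusted p = 0.0484).

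The anion exchangers run on dicarboxylate and ion gradients, and 3 of 6 genes of those gradients were called. Slc13a2 and Slc13a3, the sodium-coupled dicarboxylate carriers, peaked at CT11.9 (amplitude 0.26, adjusted p = 0.0072) and CT13.1 (0.19, adjusted p = 0.0076), near the CT11.7 of Slc22a8. Slc9a3, the apical sodium-proton exchanger, peaked at CT8.90 (0.32, adjusted p = 0.0140). Of the carnitine genes, 3 of 5 were called. Cpt1a peaked at CT7.39 (0.24, adjusted p = 2.500e-04), close to the CT7.66 of Slc22a5. Crat peaked at CT10.0 (0.09, adjusted p = 0.0174) and Cpt2 at CT11.5 (0.13, adjusted p = 0.0297). Of all genes called rhythmic, 21.2% peaked in the 4 h window centred on CT8 and 12.5% in that on CT12. By table, Slc22a8 peaked at CT12.4 and CT8.82, and Slc22a5 at CT9.18 and CT6.05. Whether any of these peaks coincide was not tested.

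Among PDZ scaffolds, which hold apical transporters at the membrane, 3 of 4 were called: Slc9a3r1 (0.22, CT11.6), Slc9a3r2 (0.25, CT17.9) and Pdzk1ip1 (0.11, CT6.75), with adjusted p of 1.582e-04, 1.637e-04 and 0.0086. Among transcription factors of tubule transporter genes, 4 of 7 were called, among them Nr1h4 (0.45, CT10.5), Ppara (0.37, CT11.1) and Nr1i2 (0.22, CT8.28), with adjusted p of 2.192e-04, 5.296e-04 and 0.0325. The clock genes used as a reference were called for 6 of 6, from 0.39 for Hlf to 2.61 for Dbp, which peaked at CT9.69. The amplitudes of Slc22a4, Slc22a5 and Slc22a8 were thus below the smallest of these 6. In none of these lists was a gene called for D-alanine minus vehicle. The values closest to a call were Slc22a23 (0.18 ± 0.06, adjusted p = 0.104), the efflux pump gene Abcc4 (0.49 ± 0.18, adjusted p = 0.113) and Slc13a2 (-0.23 ± 0.09, adjusted p = 0.133).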

How the data were processed

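RNA from mouse kidney was sequenced in 48 libraries. The authors deposited FPKM values for 49585 genes in 2 tables of 24 libraries. The submitters' processing notes name the build GRCm38 (mm10), and the labels' protocols name a SMARTER library kit. The sources used here give no aligner, counter or filter. GENCODE M21 holds 49326 of the gene identifiers. FPKM divides by the library total, so abundant transcripts shift all others. From 1-fragment steps of low genes, depth was 7626057 to 14403230 fragments (97.0% to 97.6% of low values were whole within 0.05). Replicate libraries correlated at 0.901 to 0.987 and none were identical.

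Genes entered the tests when 4 or more libraries reached an FPKM of 1 (14922, all 8 transporters among them). Values were tested as log2(FPKM + 1) in limma 3.58.1 (R 4.3.3) with trended moderation, over 12 groups with the table as a term, and for rhythm with a 24 h cosine and sine. All p are two-sided, Benjamini-Hochberg adjusted over all genes at 0.05. Changes on this scale understate low genes. SE of amplitude and peak came from the delta method. The code was tested on simulated data. Correlation p came from permutation within table and group, which is narrower than the within-table permutation laid down for them. Fragments that fit several similar genes, and the strand of overlapping genes, could be counted in ways not given here.

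Named genes were the 8 members, up to 4 genes of each list with the smallest rhythm p, up to 2 with the smallest treatment p (of these only the 3 nearest to a call are printed), and the 3 genes most like each member. Some genes that this rule names are left out of the text. The members, lists and alternatives were chosen with earlier results of these data known. Alternatives were a pseudocount of 0.1, no filter, TPM, quantile normalization, median centring, rescaling without mitochondrial genes, robust moderation, leaving the table term out, letting it vary with time, fitting each table alone, a marker covariate and leaving out each library. The inner medulla covariate and the fit without 3 libraries were chosen after seeing the data.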

Additional observations from a re-analysis of the deposited data

Results flagged for a closer look

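In each group of 4 libraries the value farthest from the rest was checked against Dixon's 95% critical value, on log2 values minus the mean of the table. Of 96 groups (8 genes in 12 groups) 4 had a library apart, and chance gives about 1 in 20 groups. Slc22a8 in D-alanine CT4 replicate 2 was low, at 58.0 FPKM beside 146.9, 163.5 and 166.1, and the same library had the highest Slc22a7 of its table. Slc47a1 in D-alanine CT20 replicate 1 was high, at 310.3 FPKM beside 219.6, 224.0 and 225.1. Slc22a2 in that same library was apart too, at 202.0 FPKM beside 146.3, 194.0 and 203.6, which shows only after the table mean is removed. Slc22a5 in vehicle CT12 replicate 1 was low, at 45.6 FPKM beside 53.5, 54.9 and 55.5. The causes were not tested.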

How the results depend on the processing

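The call of 0 of 8 genes for D-alanine minus vehicle, over the times and at each time, was the same in every alternative and in each of 48 fits without a library. Over all genes those fits called 93 to 631 over the times and 0 to 1247 at the single times, where the count was 0 without the 3 CT0 libraries low in proximal tubule markers. Slc22a4 was called rhythmic in every alternative for both treatments together. The joint count was 3 and became 6 with the proximal tubule covariate, 4 with the inner medulla covariate, 2 without those 3 libraries, 2 in each table alone, and 3 to 4 when each library was left out. Over all genes the count was 3947, and it became 4632, 4959 and 3387 in the first 3 of these, and 1831 and 3090 in the first and second table. In vehicle the count of 2 became 0 with no filter, with TPM, without mitochondrial genes, with no table term, in each table alone and with the inner medulla covariate, and 1 with quantile normalization and without the 3 libraries. Leaving out each library gave 0 to 2 in vehicle and 1 to 2 in D-alanine. In D-alanine the count of 2 became 1 with no filter and without the 3 libraries, and 0 with TPM, with no table term and in the first table alone. With time as a factor the count of 2 became 1 in the first table alone and 4 with the inner medulla covariate, and 2 to 3 when each library was left out. The causes were not tested. Fits of a single table hold 24 libraries in place of 48. Members' values for the 2 main tests changed sign or call in 18 and 9 of 128 comparisons each. No paired analysis was possible because the replicate numbers follow the order of the samples and pair nothing. Each gene had at least 430 fragments in every library, and the part of depth in the spread was not tested.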
